A study of Mus musculus with 18 samples.

Results

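The nuclear genes of the mitochondrial respiratory chain were examined in microglia enriched from the mouse striatum. The genes were chosen by symbol prefix (Nduf, Uqcr, Sdha to Sdhd, Cox4i, Cox5, Cox6, Cox7 and Cox8) and by measured level. A gene was kept if it was protein coding and had at least 1 CPM (counts scaled to the library total) in at least 3 of the 18 samples. This gave 74 genes of the 13812 protein-coding genes that met the same limit, in a table of 55536 genes. They comprise 7 core subunits, 29 accessory subunits and 8 assembly factors of complex I, 4 subunits and 4 assembly factors of complex II, 8 genes of complex III, 13 genes of complex IV and Cox7a2l, which encodes a factor that joins complexes III and IV. Because level chose the genes, the levels that follow are a description.

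Cells carrying CD11b, an integrin chain found on microglia and on other myeloid cells, were pulled from dissociated tissue with beads, and their RNA was sequenced. The 18 samples were 5 WT, 3 Tyrobp-KO, 5 Q175 and 5 Q175;Tyrobp-KO, all on C57BL/6 by the labels and C57Bl6/J by the study's methods. Q175 mice carry, on 1 allele of the endogenous mouse Htt gene, the first exon of human HTT with an expanded CAG repeat. The Tyrobp-KO mice lack, in every cell, both alleles of the gene for a signalling adaptor of microglial receptors, and Q175;Tyrobp-KO mice carry both changes. Neither change is limited to microglia, and the labels of these samples give no age. Females were 1 of 5 WT, 2 of 3 Tyrobp-KO, 4 of 5 Q175 and 2 of 5 Q175;Tyrobp-KO samples. The study's methods describe dissociation of the striata of each mouse and then name 1 striatum for a sample, whereas the labels name 2 striata, and the labels give no mouse identities, so whether each sample is a separate mouse is not settled. The p-values below therefore measure the spread between these samples.

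The respiratory chain sits in the inner mitochondrial membrane. Complex I takes electrons from NADH and complex II takes them from succinate, complex III passes them to cytochrome c, and complex IV passes them to oxygen, while complexes I, III and IV pump protons that drive the ATP synthase. Most of its subunits are encoded in the nucleus and imported, whereas the catalytic centre of complex IV, cytochrome b of complex III and the membrane core of complex I are encoded by mitochondrial DNA. Resting microglia rely largely on oxidative phosphorylation, and activated microglia shift towards glycolysis.

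Total counts were between 11260410 and 29771983 per sample. Tyrobp had between 196 and 475 CPM in WT and between 213 and 368 in Q175, against 17.5 to 21.3 in Tyrobp-KO and 9.89 to 14.6 in Q175;Tyrobp-KO. All 15 microglial markers were detected in every sample, with summed levels of 13750 to 24770 CPM, and all 12 astrocyte, 10 neuronal and 10 oligodendrocyte markers were detected as well. Tyrobp-KO sample 20 and Q175 sample 14 stood apart from all others in several of the measures that follow, so values without them are given beside the results.

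Regulatory sequences of 4 genes are shown because they match motifs of factors that are known to bind promoters of respiratory chain genes. Genes were ranked by the number of different motifs, then of matches, before the start, and ties went to the gene with the higher level, which placed Sdhd, with 1 match, among them. The motifs searched on both strands were GCGCATGCG for NRF1, CCGGAAG for the ETS family and AAGATGGCG for YY1. The NRF1 letters match on both strands within the palindrome GCGCATGCGC, so 1 such site counted as 2 matches in the ranking. RefSeq windows of GRCm38.p6, from 250 bases before to 50 bases after the start, matched 61 of the 74 genes with 63 windows. The stretches are the 250 bases before each start, 5′ to 3′ on the gene's strand, with the motifs in capitals.
Cox6a1, chr5:115348959-115349208, minus strand: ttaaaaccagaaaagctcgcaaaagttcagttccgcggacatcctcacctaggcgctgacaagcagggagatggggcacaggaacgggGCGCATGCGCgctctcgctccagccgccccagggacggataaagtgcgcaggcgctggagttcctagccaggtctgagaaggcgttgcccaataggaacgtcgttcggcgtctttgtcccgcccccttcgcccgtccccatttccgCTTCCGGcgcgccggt
Ndufaf4, chr4:24897833-24898082, plus strand: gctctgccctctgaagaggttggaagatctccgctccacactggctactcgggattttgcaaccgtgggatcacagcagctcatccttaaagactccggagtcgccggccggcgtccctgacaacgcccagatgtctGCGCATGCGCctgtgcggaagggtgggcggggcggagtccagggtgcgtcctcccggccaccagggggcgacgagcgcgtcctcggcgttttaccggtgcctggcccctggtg
Ndufa11, chr17:56717512-56717761, plus strand: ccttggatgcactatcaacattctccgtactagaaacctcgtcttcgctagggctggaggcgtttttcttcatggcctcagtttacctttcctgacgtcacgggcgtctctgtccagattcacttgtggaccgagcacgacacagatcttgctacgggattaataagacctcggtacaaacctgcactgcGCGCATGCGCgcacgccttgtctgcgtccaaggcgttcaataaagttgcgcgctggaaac
Sdhd, chr9:50603850-50604099, minus strand: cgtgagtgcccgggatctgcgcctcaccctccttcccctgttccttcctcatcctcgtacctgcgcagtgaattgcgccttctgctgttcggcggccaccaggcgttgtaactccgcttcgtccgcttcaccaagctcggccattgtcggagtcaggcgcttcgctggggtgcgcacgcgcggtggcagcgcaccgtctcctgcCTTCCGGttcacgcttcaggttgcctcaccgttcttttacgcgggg

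In the whole windows, the NRF1 letters were in 7 of the 63 promoters (11.1%), against 1.75% of the 32851 windows of all genes. The ETS letters were in 15 (23.8%, against 8.86%) and the YY1 letters in 6 (9.52%, against 1.4%). At least 1 of the 3 was in 25 promoters (39.7%), against 11.4% of all windows. Before the start alone, the share with any of the 3 was 22.2% against 8.62%, and the YY1 letters were in 0 of the 63. These are letter matches; binding was not measured.

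Levels between genes are compared as mean CPM over the 18 samples per kilobase of the principal transcript. Complex IV held the most abundant transcripts. Cox8a, a small complex IV subunit (ENSMUSG00000035885, GRCm38 chr19:7215153-7217616), was highest at 169 CPM per kb, followed by Cox4i1 at 131, which encodes the largest nuclear subunit of complex IV. The median over the 13 genes of complex IV was 44.9 CPM per kb, close to the 44.5 of complex III, where Uqcrq was highest (61.1) and the Rieske iron-sulfur protein gene Uqcrfs1 lowest (25.7). In complex I, the core subunits had a median of 23.6, and Ndufs3 was lowest (15.4). The accessory subunits had a median of 21.8 and ranged from Ndufa5 (6.39) to Ndufa7 (53.9).

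Complex II and the assembly factors complete the order of levels. Sdha, the flavoprotein that oxidises succinate, had 51.1 CPM per kb, whereas Sdhc, a membrane anchor, had 13.9. Assembly factors lay lowest, with medians of 6.52 for complex I (Ndufaf6 3.84 to Ndufaf7 15.7) and 4.90 for complex II (Sdhaf3 1.87 to Sdhaf2 7.91). Cox7a2l stood at 71.7.

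The complex IV paralogs were expressed very unevenly. Cox4i1 exceeded Cox4i2, the form known from lung and hypoxic cells, by 161-fold per kb (131 against 0.816 CPM per kb). Cox6a1 exceeded the heart and muscle form Cox6a2 by 44.0-fold (90.6 against 2.06), and Cox8a exceeded the muscle form Cox8b by 288-fold (169 against 0.587). Ndufa4 exceeded its hypoxia-inducible relative Ndufa4l2 by 116-fold (44.9 against 0.387), and Cox7a2 exceeded the muscle form Cox7a1 by 68.1-fold (55.5 against 0.815). Cox6b1 (76.95) exceeded the testis form Cox6b2 (5.82) by 13.2-fold, whereas Cox7a2 stood at 0.774 times the level of Cox7a2l. The less abundant forms at or below 2.06 CPM per kb rest on few counts.

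The level limit, applied to CPM of the library total without further scaling, cut through these minor paralogs. Just inside it, Cox4i2 reached 1 CPM in 3 samples (limit-deciding value, the highest after the top 2, 1.03 CPM), Cox6a2 in 13 (2.07) and Cox6b2 in 16 (4.62). Just outside, Cox8b reached 1 CPM in 1 sample (deciding value 0.534) and Ndufa4l2 in 0 (0.587), Cox7b2 did not exceed 0.129 CPM, and Cox8c had no count in any sample. Cox6b1 and Cox7a1 were left out by name. Cox6b1 passed 1 CPM in all 18 samples, and Cox7a1 did not exceed 0.724 CPM. Of the 74 genes kept, 71 had at least 1 CPM in all 18 samples. The libraries did not keep strand, and 27 of the 74 share exonic bases with another gene, 25 of them with one on the opposite strand (for example Cox4i1 with Emc8), so their counts cannot be separated from those of the neighbour. Processed pseudogene copies of these short transcripts add a like uncertainty.

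The sample-to-sample spread was largest in complexes III and IV and in the small accessory subunits of complex I. The median gene had a 5.92-fold range from the lowest to the highest sample in complex IV and a 5.24-fold range in complex III, against 3.47-fold for complex I accessory subunits, 1.95-fold for complex I core subunits and 2.27-fold for complex II subunits. The SD of log2 CPM within genotypes was 0.683 in complex IV, 0.639 in complex III and 0.287 in the complex I core. Over the 74 genes the median SD within genotypes was 0.445, against 0.389 for all genes tested and 0.308 for the 6992 protein-coding genes of like level. The widest spread was that of Cox8a (SD 0.947), Cox6a1 (0.884) and Cox7c (0.865), all small subunits of complex IV.

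**Figure D1:**
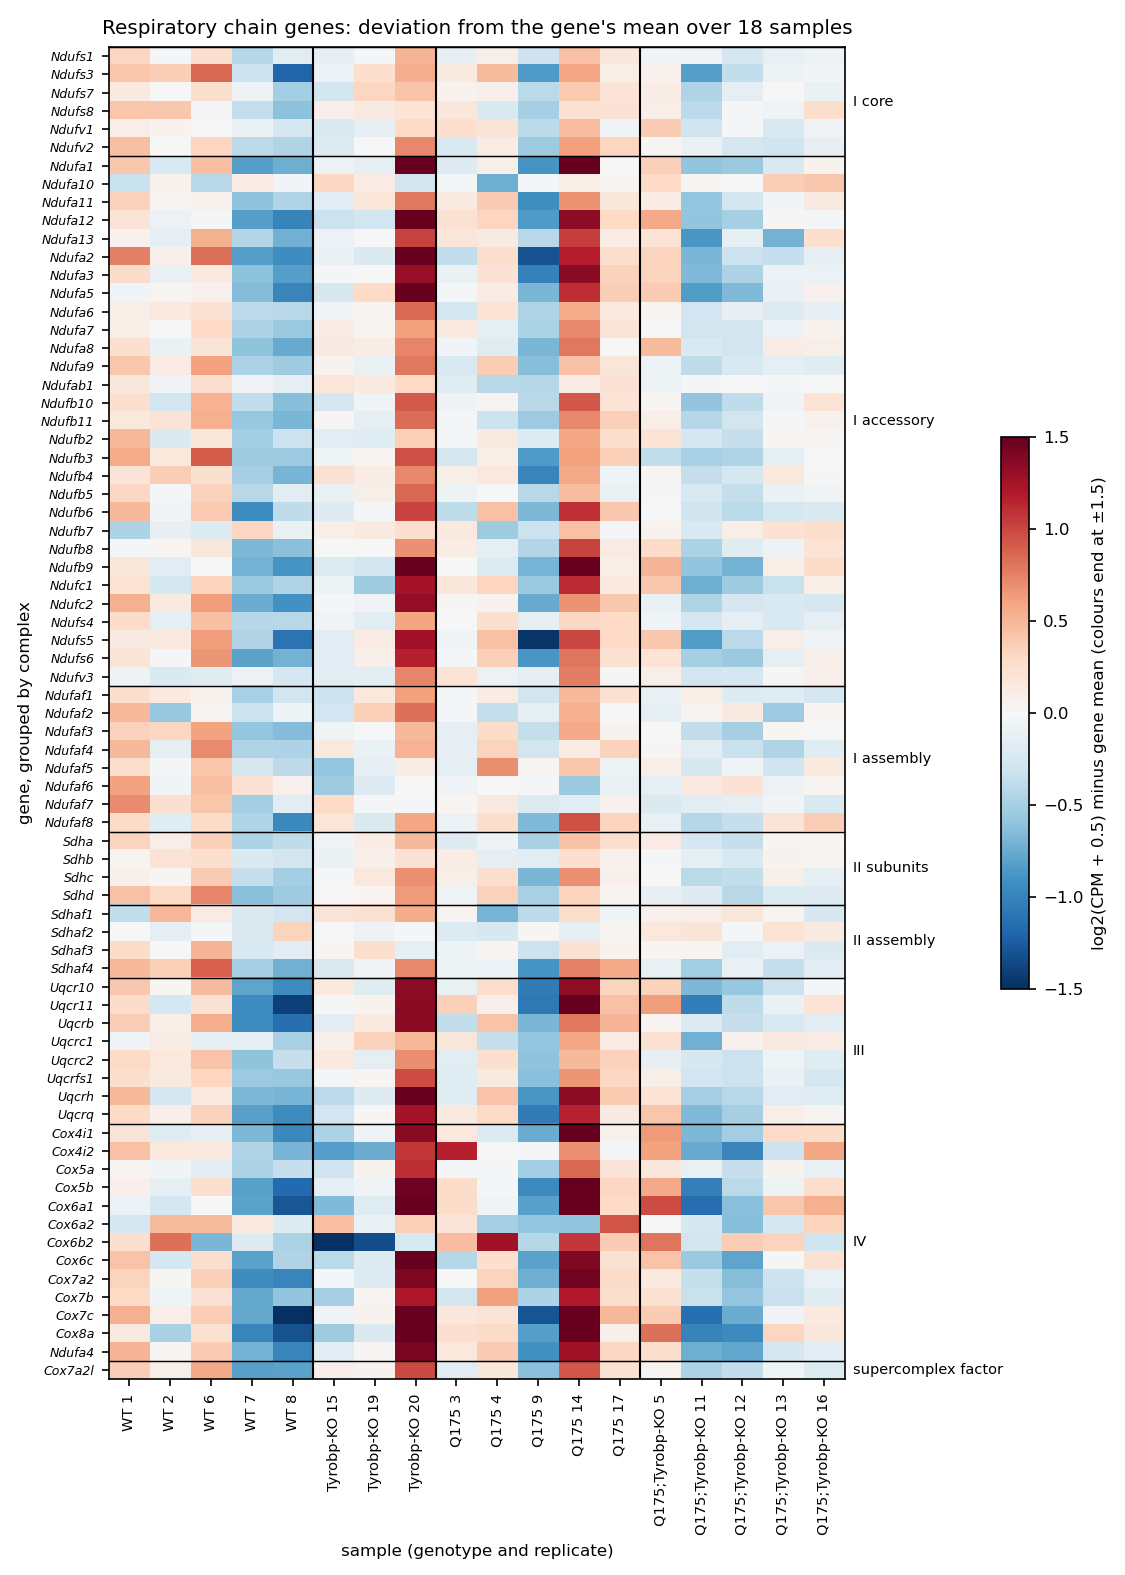
Deviation of 73 of the 74 genes, each from its own mean over the 18 samples (colour, log2 of CPM plus 0.5), with genes in rows grouped by complex and samples in columns grouped by genotype. Tyrobp-KO sample 20 and Q175 sample 14 are red in most rows, with 68 and 70 of all 74 genes above their mean. WT samples 7 and 8 and Q175 sample 9 are blue, with 4, 2 and 2, and Q175;Tyrobp-KO samples 11 and 12 have 7 and 6.

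Most of the genes were high or low in the same samples, and the samples at the ends came from WT, Tyrobp-KO and Q175. Q175;Tyrobp-KO samples 11 and 12 were low as well, with 7 and 6 of the 74 genes above their mean. Summed over the 74 genes, the level was 2282, 1922, 2343, 1329 and 1277 CPM in WT samples 1, 2, 6, 7 and 8. It was 1777, 1904 and 3723 CPM in Tyrobp-KO samples 15, 19 and 20, and 1898, 2050, 1277, 3700 and 2180 in Q175 samples 3, 4, 9, 14 and 17. It was 2231, 1438, 1504, 1875 and 1928 CPM in Q175;Tyrobp-KO samples 5, 11, 12, 13 and 16. Thus 1 Tyrobp-KO and 1 Q175 sample lay far above the rest, 2 WT samples and 1 Q175 sample lay lowest, and all 4 genotypes overlapped. The group means were 1831 ± 508 (SD, n = 5) in WT, 2468 ± 1089 (n = 3) in Tyrobp-KO, 2221 ± 896 (n = 5) in Q175 and 1795 ± 327 (n = 5) in Q175;Tyrobp-KO. In bulk RNA, a change in the share of cells of a type and a change in RNA per cell cannot be told apart.

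As a share of all counts, the 74 genes took 0.130% in WT sample 7 (95% Wilson interval 0.128 to 0.132) and 0.323% in Q175 sample 14 (0.320 to 0.326), intervals that cover counting error only. Of the 74 genes, 36 had their highest value in Tyrobp-KO sample 20 and 22 in Q175 sample 14. At the other end, 60 of the 74 had their lowest value in WT sample 7 (12 genes), WT sample 8 (24) or Q175 sample 9 (24). The departures were graded by complex: over all samples the mean deviation of the genes of a complex ran from -0.85 to 1.25 (log2) in complex IV, from -0.82 to 1.12 in complex III, from -0.63 to 0.94 in complex I accessory subunits, and only from -0.49 to 0.44 in complex I core subunits.

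Other measures moved with these samples. The 13 mitochondrially encoded genes summed to 59140 CPM in Tyrobp-KO sample 20 and 66140 in Q175 sample 14, against 5679 to 24480 in the other 16. The nuclear genes were raised less than the mitochondrial ones there, and their sum was 6.3% and 5.59% of the mitochondrial sum, against 21.1 to 28.8% in WT. This share was 11.7 to 18.9% in the other Q175 samples, below every WT sample. It was 20.9 and 28.1% in the other Tyrobp-KO samples and 9.11 to 24.7% in Q175;Tyrobp-KO. The 78 cytosolic ribosomal protein genes summed to 15160 and 14430 CPM in these samples, against 3578 in WT sample 8 and 3611 in Q175 sample 9. The 12 astrocyte markers summed to 4386 CPM in Tyrobp-KO sample 20 and 6360 in Q175 sample 14, while WT samples held 653 to 1157, the other Tyrobp-KO samples 730 and 1450, the other Q175 samples 1143 to 2512 and Q175;Tyrobp-KO samples 694 to 3496. The 10 neuronal markers ranged from 360 to 2687 CPM over all samples, highest in Tyrobp-KO sample 20, and the 10 oligodendrocyte markers from 1750 to 6390. Whether RNA of other cell types took part in the levels of the respiratory chain genes was not tested.

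**Figure D2:**
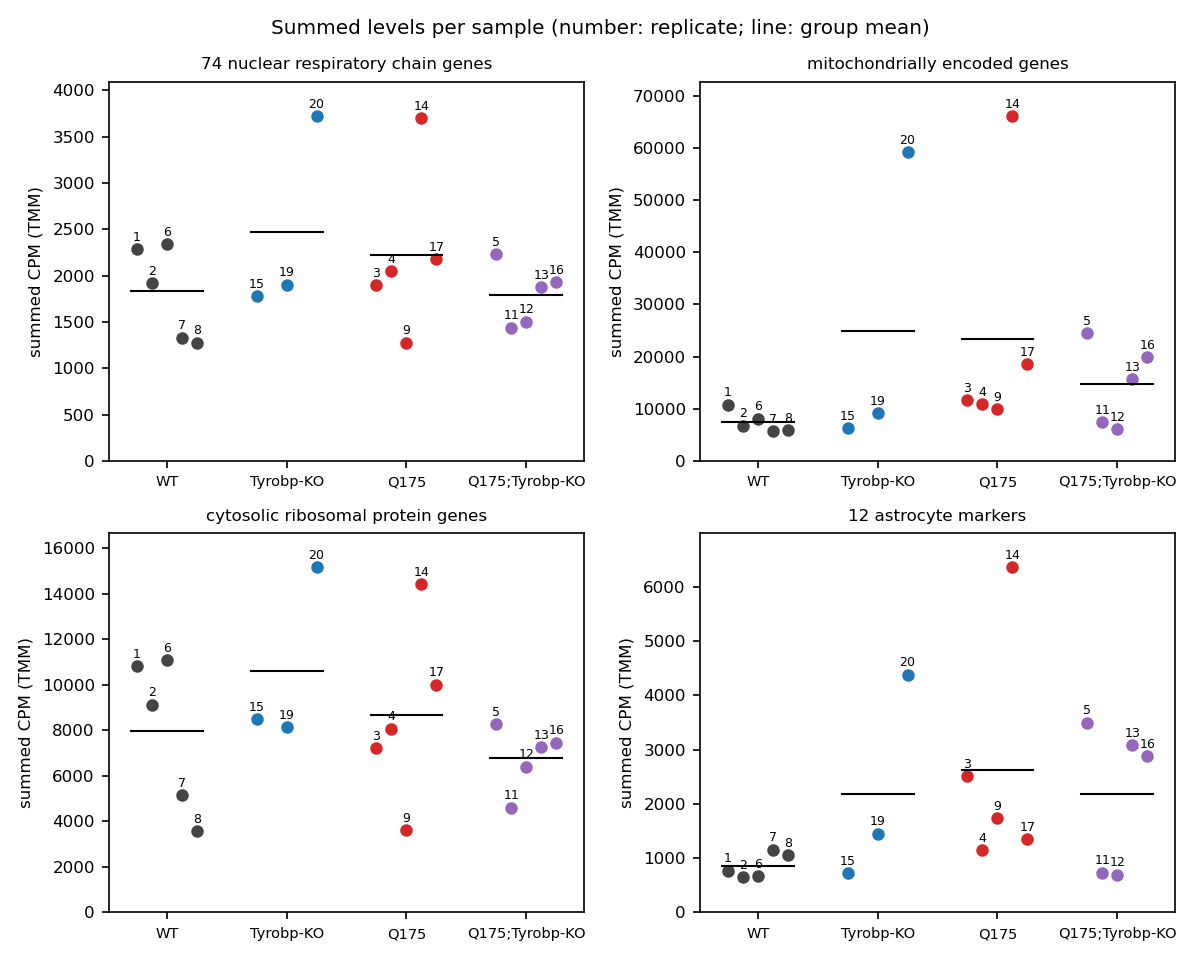
Summed CPM per sample (points, numbered by replicate) and group mean (line) of the 74 nuclear genes, the 13 mitochondrially encoded genes, 78 ribosomal protein genes and 12 astrocyte markers. Tyrobp-KO sample 20 and Q175 sample 14 are highest in all 4 panels, at 3723 and 3700 CPM for the nuclear genes.

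In the samples at the ends, the deviations differed with transcript length. The respiratory chain transcripts are short, with a median principal length of 863 bases against 2928 for all tested protein-coding genes. In Tyrobp-KO sample 20, the 42 genes under 1 kb were on average 1.06 (log2) above their means and the 32 longer ones 0.55 above. In Q175 sample 14 these values were 1.003 and 0.47, in WT sample 8 -0.76 and -0.39, and in Q175 sample 9 -0.73 and -0.39. Among other protein-coding genes, the median deviation of the 860 shorter than 1 kb minus that of the 6893 longer than 3 kb was 0.40 in Tyrobp-KO sample 20 and 0.24 in Q175 sample 14, and -0.41 and -0.52 in WT sample 8 and Q175 sample 9. Genes under 1 kb were 12 of 13 in complex IV, 5 of 8 in complex III and 20 of 29 complex I accessory subunits. They were 2 of 7 in the complex I core and 0 of 4 complex II subunits. Complex and length thus went together, and the part of length in the results was not tested.

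**Figure D3:**
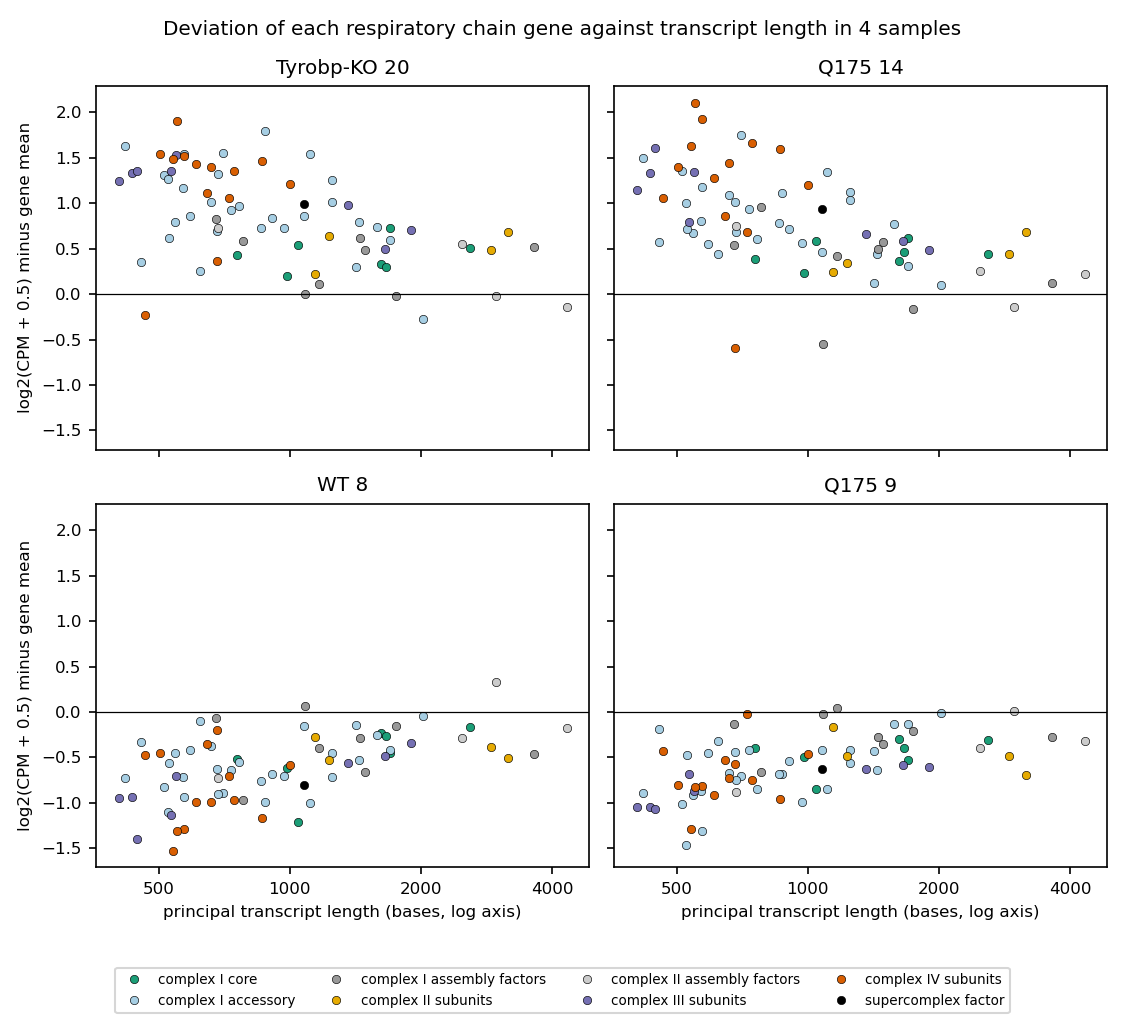
Deviation of each gene from its mean over 18 samples (y axis, log2 of CPM plus 0.5) against principal transcript length (x axis, bases, log scale) in the samples with the highest and lowest levels, coloured by complex. Genes under 1 kb lie farther from 0 than longer ones in all 4 panels, for example 1.06 against 0.55 on average in Tyrobp-KO sample 20.

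Single genes show the same samples at the ends. Cox8a had 81.0, 52.4, 86.6, 37.1 and 29.5 CPM in WT samples, in the replicate order above, and 50.6, 63.3 and 277 in Tyrobp-KO samples. It had 87.8, 90.3, 41.5, 319 and 77.7 CPM in Q175 and 131.5, 36.4, 37.8, 91.9 and 83.0 in Q175;Tyrobp-KO samples. The values of all genotypes overlapped, and the high group means of 130 ± 127 (SD, n = 3) in Tyrobp-KO and 123 ± 111 (n = 5) in Q175 each rest on 1 sample. Ndufv1, a core subunit of complex I that binds NADH (chr19:4007384-4012806), varied far less: 41.5, 40.03, 38.6, 35.9 and 32.0 CPM in WT, 33.0, 35.6 and 47.8 in Tyrobp-KO, 46.2, 44.3, 29.3, 53.3 and 37.7 in Q175 and 50.5, 31.2, 38.0, 32.8 and 37.3 in Q175;Tyrobp-KO. Its values overlapped between all genotypes, with group means of 37.6 ± 3.75 (SD, n = 5), 38.8 ± 7.88 (n = 3), 42.1 ± 9.09 (n = 5) and 38.0 ± 7.59 CPM (n = 5).

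In the comparison of Q175 with WT, which asks what mutant huntingtin does when Tyrobp is intact, no respiratory chain gene differed past the threshold. Of the 74 genes, 63 were estimated higher and 11 lower in Q175, with a median log2 fold change of 0.22, against -0.02 for all genes. With edgeR's quasi-likelihood test at a Benjamini-Hochberg FDR of 0.1 over 18266 genes, 0 of the 74 were called, where the background was 0% of all genes, and the smallest adjusted p was 0.673. DESeq2 called 0 of the 74 as well, against 1.28% of the genes it gave an adjusted p. At an unadjusted p under 0.05, 2 of the 74 were higher and 0 lower, against 5.47% and 0.766% of all genes.

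Those 2 were Cox6a1 and Cox8a. Cox6a1 (chr5:115345642-115348981), whose promoter holds both the NRF1 and the ETS letters, had 39.99, 35.4, 42.6, 24.2 and 17.3 CPM in WT and 51.9, 41.0, 24.0, 164 and 52.8 in Q175. The groups overlapped, and Q175 sample 14 was far above the other Q175 samples. The log2 fold change was 1.11 ± 0.45 (SE; unadjusted p = 0.0283, edgeR adjusted p = 0.673), and 0.43 without that sample. For Cox8a it was 1.15 ± 0.49 (unadjusted p = 0.0363), and 0.39 without that sample. Among the genes estimated lower, Ndufaf6, an assembly factor of complex I, had the smallest p (-0.44 ± 0.23, unadjusted p = 0.081). Ndufaf6 had 6.43, 3.96, 5.75, 4.80 and 4.28 CPM in WT and 3.90, 4.04, 4.02, 2.62 and 3.75 in Q175, with overlap, and Q175 sample 14 lowest.

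By complex, the median log2 fold change between Q175 and WT was 0.65 in complex IV, 0.39 in complex III, 0.27 in complex I accessory subunits, 0.10 in the complex I core and 0.04 in complex II subunits. Without Q175 sample 14 the median over the 74 genes was 0.02, with 41 estimated higher and 0 at an unadjusted p under 0.05. Without Q175 sample 9, the lowest, it was 0.31, with 14 higher at that level. Of all genes, 3.75% and 7.18% reached that level in these fits, in either direction. The size of the estimate thus changed with the removal of either sample.

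Deletion of Tyrobp in Q175 mice likewise gave no call among these genes. In Q175;Tyrobp-KO against Q175, 6 of the 74 were estimated higher and 68 lower, with a median of -0.30 (all genes -0.05). edgeR called 0 of the 74, against 0.0111% of 18059 genes, and the smallest adjusted p was 0.533. DESeq2 called 0, against 0.232%. At an unadjusted p under 0.05, 0 were higher and 1 lower, against 3.45% and 4.56% of all genes. That gene was Ndufs4, an accessory subunit of complex I whose loss causes Leigh syndrome. It had 20.8, 24.5, 18.9, 25.8 and 25.5 CPM in Q175 and 19.7, 17.4, 18.6, 17.6 and 18.7 in Q175;Tyrobp-KO. The groups overlapped through Q175 sample 9 and Q175;Tyrobp-KO sample 5. The log2 fold change was -0.33 ± 0.13 (unadjusted p = 0.024, edgeR adjusted p = 0.533), and -0.30 without Q175 sample 14.

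The median without Q175 sample 14 was -0.11, with 21 genes estimated higher and 1 higher and 0 lower at an unadjusted p under 0.05. Without Q175 sample 9 it was -0.44, with 1 higher and 27 lower at that level. The shares of all genes at that level, in either direction, were 5.24% and 14.9% in these fits. By complex, the medians were -0.52 in complex IV, -0.40 in complex III, -0.33 in complex I accessory subunits and -0.18 in the complex I core, in the same order as in Q175 against WT. Because the Q175 samples enter both comparisons with opposite sign, this order is not independent. Sdhaf2, which attaches the flavin to Sdha, was among the few estimated higher (0.24 ± 0.12, unadjusted p = 0.0625).

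In Tyrobp-KO against WT, 70 of the 74 genes were estimated higher and 4 lower, with a median of 0.44 (all genes 0.02), and none was called. edgeR called 0 of the 74, against 0.0222% of 18017 genes, and the smallest adjusted p was 0.61. DESeq2 called 0, against 0.935%. At an unadjusted p under 0.05, 9 were higher and 0 lower, against 3.66% and 3.15% of all genes. The 9 were Uqcrc1 and Uqcr11 of complex III, Ndufa3, Ndufa5 and Ndufb9 of complex I, and Cox5a, Cox5b, Cox6a1 and Cox8a of complex IV. Without Tyrobp-KO sample 20, the median was 0.07, with 50 of the 73 genes then tested estimated higher and 0 higher and 1 lower at an unadjusted p under 0.05. Without Tyrobp-KO sample 15 it was 0.59, with 16 higher at that level. Of all genes, 11.5% and 6.21% reached it in these fits, in either direction.

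Uqcrc1, a large core subunit of complex III (chr9:108936633-108949623), had the smallest p. Its levels were 40.1, 45.6, 38.3, 38.0 and 29.8 CPM in WT and 44.4, 53.6 and 59.5 in Tyrobp-KO. All but 1 of the WT samples lay below every Tyrobp-KO sample. The log2 fold change was 0.52 ± 0.19 (unadjusted p = 0.0195, edgeR adjusted p = 0.61), and 0.42 without sample 20. Ndufa5, an accessory subunit of the matrix arm (chr6:24518666-24528013), had 4.75, 5.03, 5.16, 2.93 and 2.22 CPM in WT and 4.05, 6.14 and 18.2 in Tyrobp-KO. It was high in sample 20 alone, with a log2 fold change of 1.28 ± 0.47 (unadjusted p = 0.0202) and 0.42 without that sample.

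Cox6b2 went against the other genes of complex IV in Tyrobp-KO against WT, in Q175;Tyrobp-KO against Tyrobp-KO and in the interaction. In Q175;Tyrobp-KO against Q175 all 13 were estimated lower. In Q175 against WT Cox6b2 had 0.71, beside a median of 0.65 for complex IV. This minor subunit (chr7:4751792-4753094) had 2.85, 4.49, 1.25, 1.95 and 1.52 CPM in WT and 0.29, 0.62 and 1.90 in Tyrobp-KO. It had 3.37, 6.20, 1.59, 5.36 and 3.15 CPM in Q175 and 4.38, 1.81, 3.13, 3.04 and 1.78 in Q175;Tyrobp-KO. Tyrobp-KO samples 15 and 19 were below every other sample of the study, the lowest on 5 counts, while sample 20 lay among the other genotypes. In Tyrobp-KO against WT its log2 fold change was -1.34 ± 0.65 (unadjusted p = 0.0655, edgeR adjusted p = 0.777). Without sample 20 it was -2.30 (unadjusted p = 0.00664, edgeR adjusted p = 0.218). When any difference among the genotypes was tested, Cox6b2 alone of the 74 had an unadjusted p under 0.05 (0.0209, edgeR adjusted p = 0.732), a level that 6.02% of all genes reached. That test called 0 of the 74 with edgeR, against 0.113% of 18613 genes, and 0 with DESeq2, against 0.548%. With both high samples left out, an alternative chosen after seeing the data, 2 of the 74 had an unadjusted p under 0.05 in it, against 10.6% of all genes. The smallest edgeR adjusted p of the 74 was then 0.389.

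In Q175;Tyrobp-KO against Tyrobp-KO, which asks what mutant huntingtin does without Tyrobp, 5 of the 74 genes were estimated higher and 69 lower, with a median of -0.49 (all genes -0.01). edgeR called 0 of the 74, against 0% of 17723 genes, and the smallest adjusted p was 0.295. DESeq2 called 0, against 4.65%. At an unadjusted p under 0.05, 1 was higher and 20 lower, against 4.99% and 8.24% of all genes. Of the 20, 10 were complex I accessory subunits, 4 were of complex III, 2 were complex II subunits (Sdhc and Sdhd) and 2 were of complex IV (Cox7a2 and Ndufa4), and the others were Ndufaf4 and Cox7a2l. Without Tyrobp-KO sample 20 the median was -0.13, with 1 higher and 1 lower at that level. Without Tyrobp-KO sample 15 it was -0.64, with 0 higher and 33 lower. The shares of all genes at that level, in either direction, were 15.9% and 12.1% in these fits.

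Sdhd, a membrane anchor of complex II whose promoter holds the ETS letters, had the smallest p. It had 33.8, 34.6 and 53.0 CPM in Tyrobp-KO and 31.1, 29.7, 25.4, 29.5 and 29.7 in Q175;Tyrobp-KO. Every Q175;Tyrobp-KO sample was below every Tyrobp-KO sample, but WT samples spanned both groups, with 46.1, 41.4, 56.7, 21.9 and 23.4 CPM. The log2 fold change was -0.50 ± 0.17 (unadjusted p = 0.0146, edgeR adjusted p = 0.295), and -0.26 without sample 20. For Cox7a2l it was -0.67 ± 0.23 (unadjusted p = 0.0167, edgeR adjusted p = 0.304), and -0.29 without sample 20. Cox6b2 was the gene estimated higher (1.61 ± 0.60, unadjusted p = 0.0243, edgeR adjusted p = 0.322). Without sample 20 its value was 2.57 (unadjusted p = 0.00137, edgeR adjusted p = 0.256).

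**Figure D4:**
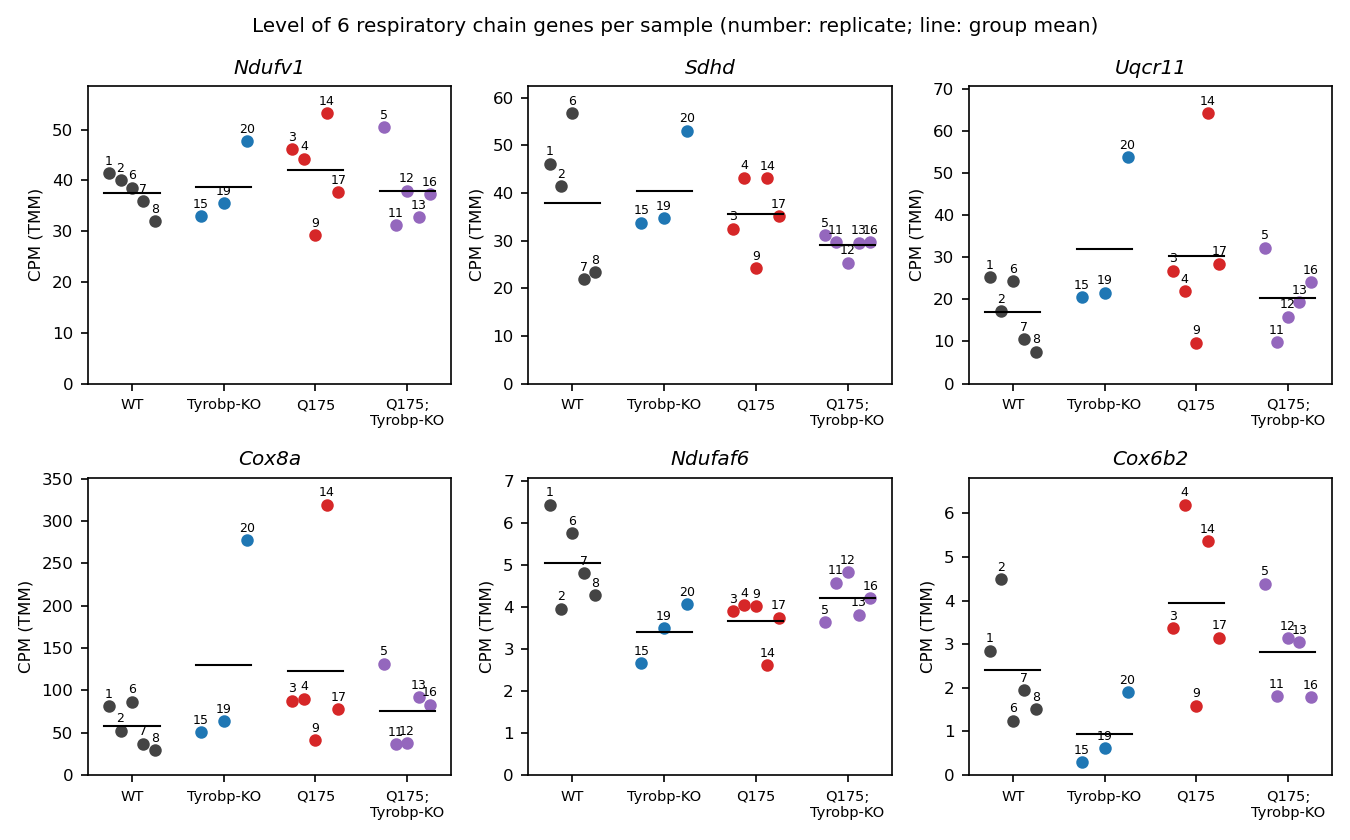
CPM of 6 genes in each sample (points, numbered by replicate) with group means (lines), on linear axes from 0. Cox8a and Uqcr11 are highest in Q175 sample 14 and Tyrobp-KO sample 20 (319 and 277 CPM for Cox8a), Ndufv1 and Sdhd vary less, Ndufaf6 is lowest in Q175 sample 14 (2.62), and Cox6b2 is lowest in Tyrobp-KO samples 15 and 19 (0.29 and 0.62).

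The interaction of Q175 and Tyrobp-KO asks whether the effect of mutant huntingtin differs with and without Tyrobp. Of the 74 genes, 4 had a positive and 70 a negative estimate, with a median of -0.62 (all genes 0.04). edgeR called 0 of the 74, against 0% of 18613 genes, and the smallest adjusted p was 0.716. DESeq2 called 0, against 0.0107%. At an unadjusted p under 0.05, 1 was positive and 12 negative, against 2.99% and 3.02% of all genes. The medians were -1.19 in complex IV, -1.03 in complex III, -0.70 in complex I accessory subunits, -0.33 in complex II subunits and -0.31 in the complex I core. Both high samples were then left out together, again after seeing the data. The median was -0.14, with 14 positive and 60 negative estimates and 2 positive and 0 negative at an unadjusted p under 0.05. Removing Q175 sample 9 alone gave -0.72, with 1 positive and 35 negative at that level. Of all genes, 2.44% and 10.2% reached that level in these fits, in either direction.

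Ndufa5 had the smallest p of the negative estimates (-1.74 ± 0.63, unadjusted p = 0.0126, edgeR adjusted p = 0.716), and -0.91 without Tyrobp-KO sample 20. Ndufaf6 was the gene with a positive estimate at that level (0.77 ± 0.31, unadjusted p = 0.0218, edgeR adjusted p = 0.716). It had 2.66, 3.49 and 4.06 CPM in Tyrobp-KO and 3.63, 4.58, 4.83, 3.82 and 4.201 in Q175;Tyrobp-KO, so that its mean was highest in WT (5.04 ± 1.03, SD, n = 5) and lower in Tyrobp-KO (3.41 ± 0.704, n = 3), Q175 (3.66 ± 0.596, n = 5) and Q175;Tyrobp-KO (4.21 ± 0.502, n = 5). With both high samples left out, its estimate was 0.74 (unadjusted p = 0.035). Cox6b2 had an estimate of 0.92 ± 0.73 (unadjusted p = 0.225), and 1.95 (unadjusted p = 0.0231) with both left out.

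**Figure D5:**
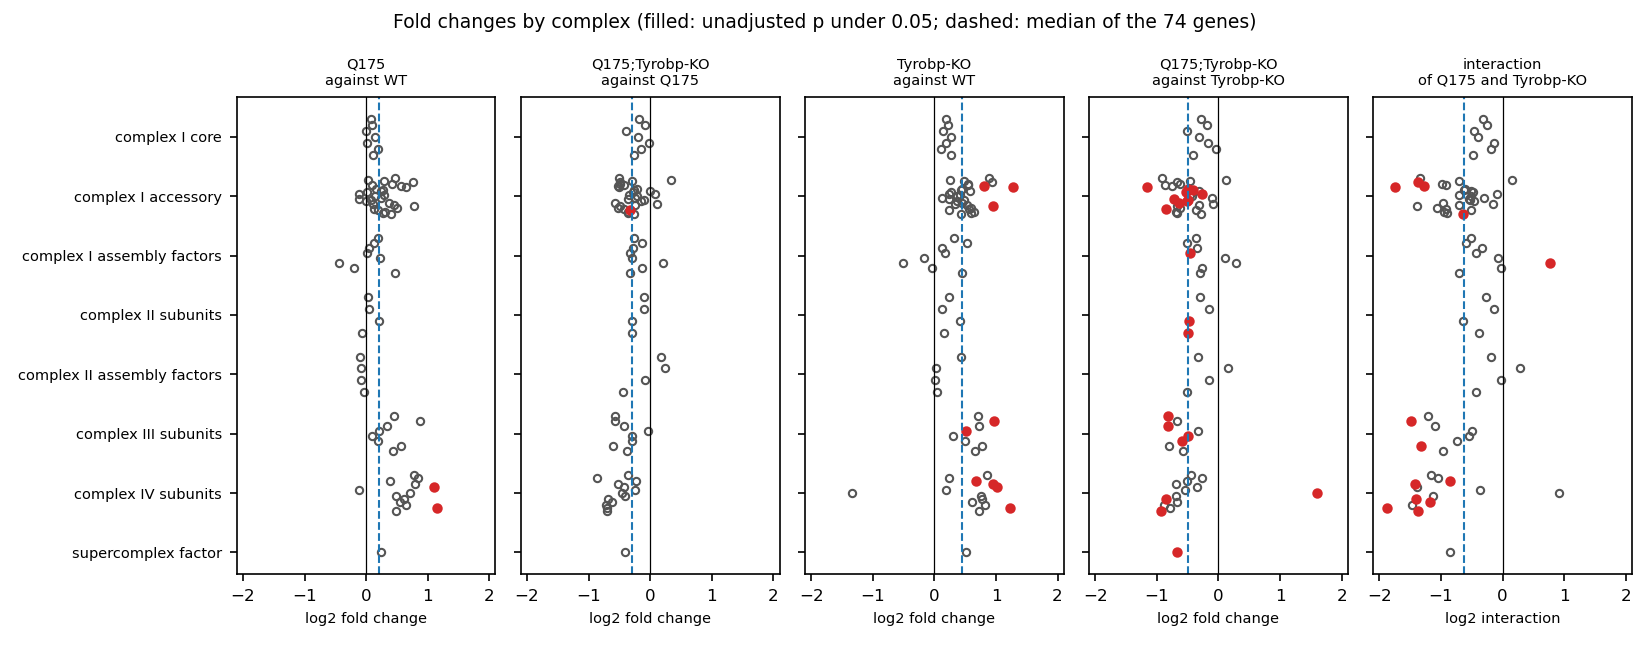
Log2 fold changes of the 74 genes (points) by complex in the 4 comparisons of genotypes and the interaction, filled where the unadjusted p is under 0.05, with the median of the 74 genes as a dashed line. None is called at an FDR of 0.1, and complexes III and IV lie farthest from 0, for example at medians of 0.39 and 0.65 in Q175 against WT and 0.10 for the complex I core.

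Some genes were described for their position or because they were left out by name. Cox6b1 behaved like the other subunits of complex IV, with log2 fold changes of 0.65 (Q175 against WT), -0.54 (Q175;Tyrobp-KO against Q175), 0.86 (Tyrobp-KO against WT) and -0.76 (Q175;Tyrobp-KO against Tyrobp-KO). It had 109 CPM in Tyrobp-KO sample 20 and 126 in Q175 sample 14, against 22.2 to 51.1 in the other samples. Sdhaf1, an assembly factor of complex II, lies 0.09 Mb from Tyrobp, Cox6b1 0.2 Mb and Cox7a1 0.23 Mb. For these genes an effect of the deletion and one of the chromosome segment around the knockout allele cannot be told apart. The values of Sdhaf1 were 5.20, 9.92, 7.53, 5.85 and 5.52 CPM in WT, 7.88, 8.13 and 10.3 in Tyrobp-KO, 7.05, 4.04, 5.09, 8.29 and 6.51 in Q175 and 7.20, 7.30, 7.86, 7.04 and 5.73 in Q175;Tyrobp-KO. Its log2 fold changes were 0.43 in Tyrobp-KO against WT (unadjusted p = 0.156) and 0.18 in Q175;Tyrobp-KO against Q175, with 1 WT value within the Tyrobp-KO range and 4 below it.

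X-linked genes are described because the sexes are unevenly spread over the genotypes. Their means are given by genotype, which cannot show a difference between the sexes. Ndufa1 averaged 8.50 ± 3.68 CPM in WT, 15.2 ± 11.98 in Tyrobp-KO, 11.5 ± 8.52 in Q175 and 8.12 ± 2.48 in Q175;Tyrobp-KO (SD). Ndufb11 averaged 20.7 ± 7.38, 25.7 ± 10.1, 22.3 ± 8.17 and 19.2 ± 3.03 CPM, and Cox7b 25.1 ± 8.04, 37.2 ± 23.8, 36.2 ± 17.7 and 23.5 ± 5.27 CPM, in the same order. All 3 had group means in the order of the summed 74 genes, highest in Tyrobp-KO, then Q175. Both high samples were from females, as was WT sample 7, one of the low ones. Summed over the 74 genes, the Q175 male, sample 9, had 1277 CPM, against 1898 to 3700 in the females. Without that sample the Q175 group thus holds females only. In Q175;Tyrobp-KO the females had 2231 and 1928 CPM, against 1438 to 1875 in the males. The WT female had 1329 CPM, against 1277 to 2343 in the males, and in Tyrobp-KO the females had 1777 and 3723 and the male 1904.

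The rest of the pathway gave no call either, over lists of ATP synthase subunits, cytochromes c1 and c, assembly factors with other names, regulators of mitochondrial biogenesis, mitochondrially encoded genes and citric acid cycle enzymes. ATP synthase followed the nuclear respiratory chain genes. Its 19 tested genes had medians of 0.32 (17 higher, 0 at an unadjusted p under 0.05) in Q175 against WT, -0.30 (0 higher, 0) in Q175;Tyrobp-KO against Q175, 0.48 (19 higher, 3) in Tyrobp-KO against WT and -0.51 (19 lower, 4) in Q175;Tyrobp-KO against Tyrobp-KO. The smallest p was that of Atp5f1 in the last of these (-0.59, unadjusted p = 0.00282, edgeR adjusted p = 0.291). Without Q175 sample 14 or Tyrobp-KO sample 20, whichever the comparison holds, these medians were 0.05, -0.12, 0.12 and -0.09. Cyc1 and Cycs, which encode cytochrome c1 and cytochrome c, had medians of 0.13, -0.38, 0.35 and -0.60 in the same comparisons.

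Genes that act on the chain without being part of it had medians nearer 0. The 34 tested assembly factors with other names had medians of -0.04 in Q175 against WT, with 14 higher and 20 lower, and 0.07 in Tyrobp-KO against WT, with 20 higher and 14 lower. The 15 regulators had medians of -0.12 and -0.03. Ppargc1a, the coactivator that drives mitochondrial biogenesis, had the smallest p of its list in Q175 against WT (0.96, unadjusted p = 0.00875, edgeR adjusted p = 0.446). The 17 citric acid cycle genes had medians of 0.04 and 0.21.

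The mitochondrially encoded genes had larger estimates than the nuclear ones with all samples included. In Q175 against WT all 12 tested were estimated higher, with a median of 1.73 and all 12 at an unadjusted p under 0.05, though none was called (mt-Atp6 2.11, unadjusted p = 0.000655, edgeR adjusted p = 0.345). In Tyrobp-KO against WT all 12 were higher, with a median of 1.90 and 9 at that level (mt-Nd2 2.52, edgeR adjusted p = 0.565). In Q175;Tyrobp-KO against Q175 and against Tyrobp-KO all 12 were lower, with medians of -0.59 and -0.78 and 0 at that level. The nuclear genes' medians in the former comparisons were 0.22 and 0.44. Without Q175 sample 14, the mitochondrially encoded median was 1.01 in Q175 against WT, with 12 of 12 estimated higher and 10 at an unadjusted p under 0.05, and 0.17 in Q175;Tyrobp-KO against Q175, with 9 higher and 3 lower. Without Tyrobp-KO sample 20, it was 0.14 in Tyrobp-KO against WT, with 8 of 11 tested higher, and 1.13 in Q175;Tyrobp-KO against Tyrobp-KO, with 12 of 12 higher. The direction in both comparisons of Q175;Tyrobp-KO thus turned with 1 sample. These leave-outs for the pathway lists were chosen after seeing the data.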

How the data were processed

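RNA of CD11b-selected striatal cells was sequenced by the authors in 18 labelled samples. By the study's methods, low-input cDNA libraries without strand information were depleted of ribosomal RNA, aligned to GRCm38 with STAR and counted with featureCounts. The deposited values are whole-number counts per gene, not normalized. The labels also name GRCh38, but all 55536 identifiers are those of GENCODE M21 for the mouse. The table holds 2 more columns without a labelled sample, which were not used.

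Counts were scaled with TMM and tested with the quasi-likelihood test of edgeR 4.0.16 (R 4.3.3) on the samples of the groups compared, or on all 18 for the interaction and for any difference among genotypes. A gene was tested if any of those samples reached 1 CPM, no covariate was used, and p-values were adjusted by Benjamini-Hochberg over all of them (FDR 0.1). Pairwise comparisons share samples. CPM values are TMM-scaled, except those of the level limit, which are per library total. Deviations are of log2(CPM + 0.5). Levels per kb use the shortest best-supported principal transcript.

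Alternatives included DESeq2 1.42.0, with its Wald test, or its likelihood ratio test for any difference among genotypes. Others were scaling by DESeq2 size factors or by total counts, filtering with filterByExpr or not at all, and a threshold of 0.05. All groups were also fitted jointly, and each sample was left out. A term was added for sex or for the level of astrocyte, neuronal and oligodendrocyte markers. The scripts were tested on simulated data. Genes named are, per comparison, the 3 with the smallest p in each direction, those of highest and lowest level per complex, core subunits and paralogs, those next to the level limit, those left out by name, X-linked genes, genes within 15 Mb of Tyrobp, those of largest spread, and the gene of smallest p per pathway list. They are given in part, and 1 gene is not reported here by name. The genes, lists and tests were chosen with earlier results of these data known.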

Additional observations from a re-analysis of the deposited data

Results flagged for a closer look

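In 66 groups of 5 values (19 genes and the summed levels, in WT, Q175 and Q175;Tyrobp-KO), 7 values, from 3 samples, lay far from the other 4 of their group by Dixon's criterion, which chance meets in about 1 group in 20. That rate is for unrelated groups that were not chosen by their values. These genes were mostly high or low in the same samples and were chosen with earlier results known. Tyrobp-KO, with 3 samples, was not examined.

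Of the 7 values, 5 came from Q175 sample 14. It had 66140 CPM over the mitochondrially encoded genes, against 9886 to 18590 in the other Q175 samples. Cox4i1 had 274.0 CPM there, against 51.0 to 96.2. Cox6a1 had 164 CPM, against 24.0 to 52.8, and Cox8a had 319 CPM, against 41.5 to 90.3. Ndufaf6 was low instead, with 2.62 CPM against 3.75 to 4.04.

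The remaining ones were in Q175;Tyrobp-KO. Sdhd had 25.4 CPM in sample 12, against 29.5 to 31.1 in the other samples of the group. Uqcrc1 had 25.4 CPM in sample 11, against 43.9 to 49.5.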

How the results depend on the processing

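Under every alternative run, 0 of the 74 genes were called in any comparison, and the smallest adjusted p was 0.107 (DESeq2, Q175;Tyrobp-KO against Tyrobp-KO). The median log2 fold change moved by more than the spread between replicates in 3 cases. With the non-microglial marker score as a term it was -0.73 in Q175 against WT and -0.13 for the interaction. With both high samples left out, an alternative chosen after seeing the data, it was -0.14 for the interaction. The score ran from -0.625 to -0.394 in WT and from 0.041 to 1.327 in Q175, without overlap. Score and genotype therefore could not be told apart in Q175 against WT. With the score as a term, Cox6a1 (-1.07), Cox8a (-1.18) and Ndufa12 (-0.77) changed sign in Q175 against WT. There, 13 of the 74 genes had an unadjusted p under 0.05, against 2.41% of all genes. Ndufaf7 (0.023) changed sign there with sex as a term, and Ndufaf5 (0.003) changed sign in Tyrobp-KO against WT without Tyrobp-KO sample 15. The cause was not tested. With sex as a term the median was 0.12 in Q175 against WT, -0.06 in Q175;Tyrobp-KO against Q175 and -0.33 for the interaction. In the interaction, 0 of the 74 genes then had an unadjusted p under 0.05, against 1.55% of all genes. With the score it was 0.14 in Tyrobp-KO against WT and -0.09 in Q175;Tyrobp-KO against Q175. In Q175;Tyrobp-KO against Tyrobp-KO the number of the 74 genes with an unadjusted p under 0.05 also varied between alternatives. Among those that kept all samples it ran from 7 (sex as a term, or 1 fit over all groups) to 46 (marker score). The shares of all genes there were 11.7% (sex), 5.51% (1 fit) and 19.7% (marker score).

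Leaving out 1 sample at a time, the medians ran from 0.02 to 0.32 in Q175 against WT, from -0.44 to -0.11 in Q175;Tyrobp-KO against Q175, from 0.07 to 0.59 in Tyrobp-KO against WT, from -0.64 to -0.13 in Q175;Tyrobp-KO against Tyrobp-KO and from -0.75 to -0.33 for the interaction. Scaling by total counts moved the median of all genes from -0.05 to 0.09 in Q175;Tyrobp-KO against Q175, where that of the 74 genes was -0.16, and from 0.04 to 0.15 for the interaction, where it was -0.44. No paired analysis was possible because the genotypes share no replicate numbers. DESeq2 gave no adjusted p for 2 of the 74 genes in Q175;Tyrobp-KO against Tyrobp-KO. With 3 Tyrobp-KO samples and the spread given above, small differences could not be detected.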
